A study of Homo sapiens with 10 samples.

Results

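The comparison described here is NMYC-overexpressing 22Rv1 cells at T12 against the same cells at T0, in a genome-wide CRISPR knockout screen. It was chosen by library label: it rests on 3 of the 10 libraries of the series, 2 replicate cultures at T12 and the single T0 library, and it covers all sgRNAs of the count table, summarised by gene symbol. 22Rv1 is an established human prostate carcinoma line. The derivative overexpresses NMYC, the protein of MYCN; the promoter of the construct and whether the line is 1 clone were not given in the sources used here, and counts of sgRNAs in genomic DNA cannot show the overexpression itself. The other 7 libraries are NMYC T6 (2 libraries), parental T12 and T6 (2 each) and parental T0 (1). All groups carry the sgRNA library, delivered by lentivirus at a multiplicity of infection of 0.3, and were selected with puromycin. T0 is the population collected after selection; the later cultures were passaged every 72 h, for 12 generations in all, and what the numbers in T6 and T12 count was not given in the sources used here.

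In a dropout screen each cell carries an sgRNA that directs Cas9 to cut 1 gene, and the share of cells with that sgRNA is read by sequencing the integrated cassette. Cells that lose a gene needed for growth become rarer with time, and cells that lose a gene that restrains growth become more common. Several sgRNAs against each gene guard against sgRNAs that do not cut or that cut elsewhere, and non-targeting sgRNAs give the change that occurs without a cut. NMYC, like MYC, pairs with MAX to drive genes of ribosome production, nucleotide synthesis and the cell cycle, and in prostate cancer it is associated with the neuroendocrine state. The screen was designed to find synthetic dosage lethal partners of MYCN, genes that cells with much NMYC cannot do without.

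The NMYC T12 libraries held 13192046 and 16321172 counts and the NMYC T0 library 15454006. sgRNAs with 0 counts made up 8.93% and 6.85% of the table at T12 and 2.98% at T0. Of 55849 sgRNAs, 53040 had a mean of at least 20 counts over the 10 libraries and were kept, among them 934 non-targeting sgRNAs. These made up 18197 genes with at least 2 kept sgRNAs and 15248 genes with 3, the most any gene had. Counts are given raw for single sgRNAs. Gene levels are sums, over the kept sgRNAs of a gene, of CPM values, which are counts divided by library totals that TMM factors adjust. The log2 value of a gene compares its mean T12 level with its T0 level, with 1 CPM added to both, and is given relative to the median gene.

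The replicate cultures differed from each other about as much as each differed from T0. The NMYC T12 libraries were at least 4-fold apart from each other, on log2(CPM + 1), at 37.1% of the kept sgRNAs. Replicate 1 was at least 4-fold away from T0 at 34.9% and replicate 2 at 40.1%. Over sgRNAs, which are not independent replicates, the Spearman correlation was 0.460 between the T12 libraries, and 0.419 and 0.398 between each of them and T0. In both T12 libraries 5771 sgRNAs (10.9%) were at least 4-fold lower than at T0 and 2931 (5.53%) at least 4-fold higher. Of the 934 non-targeting sgRNAs, which cut no gene, 8.67% were that much lower and 6.42% that much higher. Olfactory receptor, keratin-associated protein, bitter taste receptor and beta-defensin genes, taken by symbol and called unused families below, mostly have no expected use in prostate cells. For their 1430 sgRNAs the shares were 10.1% and 6.01%. For 884 sgRNAs against the ribosome, the proteasome, the spliceosome, DNA replication and RNA polymerase II with Mediator, called core genes below, they were 12.4% and 4.75%.

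The change followed how abundant an sgRNA was at T0. Of the 3978 sgRNAs with at least 1000 counts at T0, 41.3% were 4-fold lower in both T12 libraries and 0% were 4-fold higher, with a median log2 change of -2.64. Of the 5314 with 1 to 9 counts at T0, 0% were 4-fold lower, which on log2(CPM + 1) cannot be reached from so few counts, and 14.1% were 4-fold higher, with a median log2 change of 1.36. The same order held among non-targeting sgRNAs: 34.4% of the 61 with at least 1000 counts at T0 were 4-fold lower. The T0 count enters both the bins and the change, so this is a description and not a test. From 30 to 99 counts the share of 4-fold lower ones was alike, at 9 of 198 core sgRNAs (4.545%) and 516 of 11229 of all (4.595%). Within the bins from 100 counts upwards this share was higher for core sgRNAs. From 100 to under 300 counts it was 13.6% of core sgRNAs (36 of 264) against 10.4% of all sgRNAs. From 300 to under 1000 it was 24.7% (39 of 158) against 19.9%. At 1000 and over it was 45.6% (26 of 57) against 41.3%. The last bin held few core sgRNAs, and the differences between core and all sgRNAs were not tested.

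**Figure D1:**
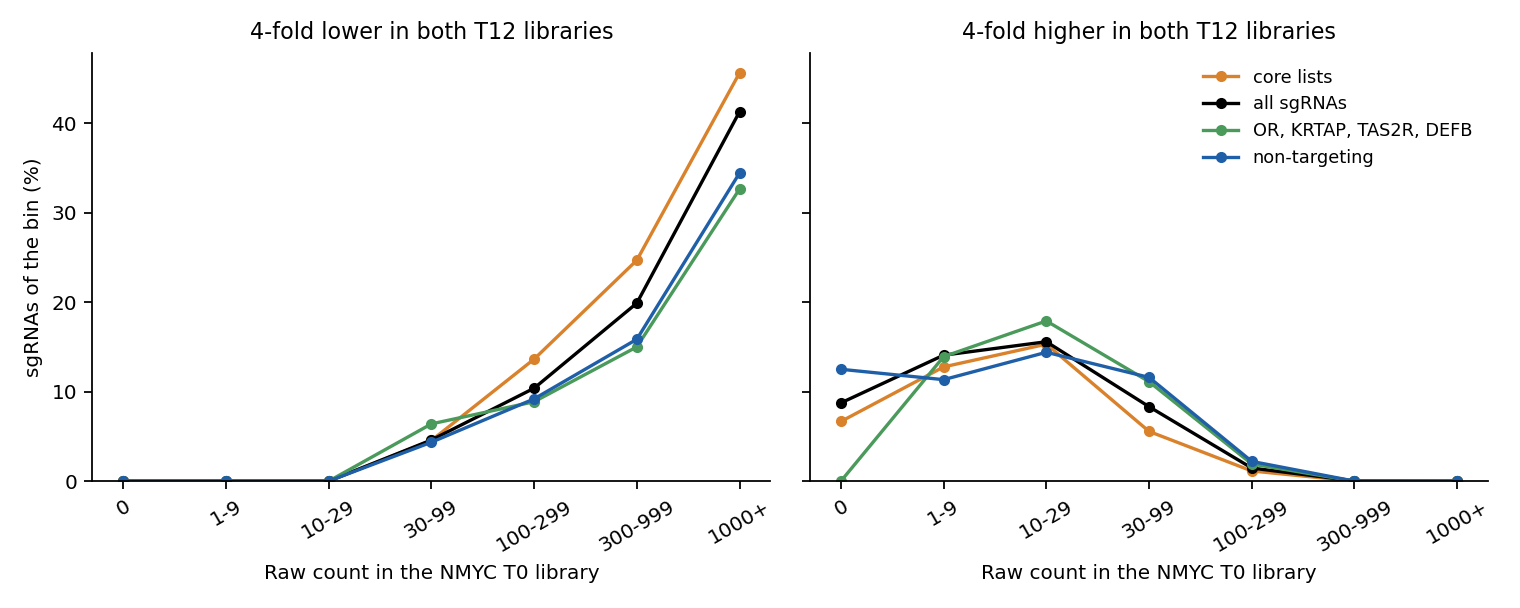
Share of sgRNAs (%) that were at least 4-fold lower (left) or higher (right) in both NMYC T12 libraries than at NMYC T0, by raw count in the T0 library, for core genes, all kept sgRNAs, unused gene families and non-targeting controls. The share of lower sgRNAs is 0 below 30 counts in all 4 sets and reaches 45.6%, 41.3%, 32.6% and 34.4% at 1000 counts and over.

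Single sgRNAs were tested first. By edgeR's quasi-likelihood test 7 of 53040 sgRNAs (0.0132%) fell at T12 with a Benjamini-Hochberg adjusted p under 0.05, and 0 rose (0%). At an unadjusted edgeR p below 0.05, 2819 of the 53040 sgRNAs were lower and 785 higher. Of the 934 non-targeting sgRNAs 34 were lower and 16 higher at this p. DESeq2 called 872 sgRNAs lower and 658 higher. The 7 target 7 different genes with no shared role. NADSYN1 is an enzyme of NAD synthesis, and EXOSC4 a core subunit of the RNA exosome that trims and degrades RNA. HIGD1B is of a family of hypoxia-induced mitochondrial proteins, ABHD1 is a hydrolase-fold protein and CMTM2 a chemokine-like membrane protein. ZNF426 is a zinc finger protein and OR8H2 an olfactory receptor. All 7 had between 1613 and 2862 counts at T0, in a library whose median sgRNA had 113.

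The NADSYN1 sgRNA had 2862 counts at T0, 64 and 197 at T6, then 2 and 0 at T12 (edgeR log2 fold change -11.5, adjusted p = 0.0443). The ZNF426 sgRNA had 2630 counts at T0, 85 and 2 at T6, then 0 and 6 at T12 (log2 fold change -9.84, edgeR adjusted p = 0.0443). The CMTM2 sgRNA had 2053 counts at T0, 33 and 17 at T6, then 12 and 9 at T12 (log2 fold change -7.78, edgeR adjusted p = 0.0443). In each of these 3 the later libraries all lay far below T0, and both T12 libraries lay below both T6 libraries for NADSYN1 and CMTM2.

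The other 4 had 0 counts in both T12 libraries, so that a fold change is a lower bound, computed against 3 counts in each T12 library. ABHD1 had 1827 counts at T0 and 0 and 1 at T6, and was at least 687-fold lower at T12 (edgeR adjusted p = 0.0443). EXOSC4 had 1787 counts at T0 and 23 and 68 at T6, and was at least 672-fold lower (edgeR adjusted p = 0.0466). OR8H2, with 1728 counts at T0 and 1 and 47 at T6, was at least 650-fold lower (edgeR adjusted p = 0.0443), and HIGD1B, with 1613 counts at T0 and 264 and 47 at T6, at least 607-fold lower (edgeR adjusted p = 0.0466). Among all 3978 sgRNAs with at least 1000 counts at T0, 14 had 0 counts in both T12 libraries. PCR reads counted with no molecular identifier are not independent molecules, so these bounds cover counting error only.

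The partner sgRNAs of these genes did not fall as far in both T12 libraries. The partners of EXOSC4 had 120 and 273 counts at T12 against 160 at T0, and 112 and 26 against 11. ABHD1 partners had 111 and 368 counts at T12 against 14 at T0, and 1106 and 24 against 269. One partner of NADSYN1 had 196 and 1049 counts at T12 against 471 at T0, and the other 2 and 10 against 34. For OR8H2, 1 partner was lower in both T12 libraries, at 12 and 18 counts against 88 at T0, and the other had 56 and 330 against 165. For HIGD1B, 1 partner was also lower in both, at 47 and 273 counts against 390, and the other had 507 and 92 against 41. ZNF426 partners had 168 and 28 counts at T12 against 116 at T0, and 217 and 209 against 69. CMTM2 partners had 4 and 1812 against 1470, and 350 and 885 against 390. No partner passed the test, with edgeR adjusted p of 0.83 or more. The calls were lost (0 of 7) when any 1 NMYC library of T6 or T12 was left out and with the culture number as a block; without parental T12 replicate 1 or 2 the count was 77 or 79, and without parental T6 replicate 2 it was 3. The labels speak of T0 replicates, and 1 NMYC T0 library was analysed here, so its own spread is taken from the other groups. Per the labels both cultures were plated after the infection and selection, so they do not show the spread between infections.

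**Figure D2:**
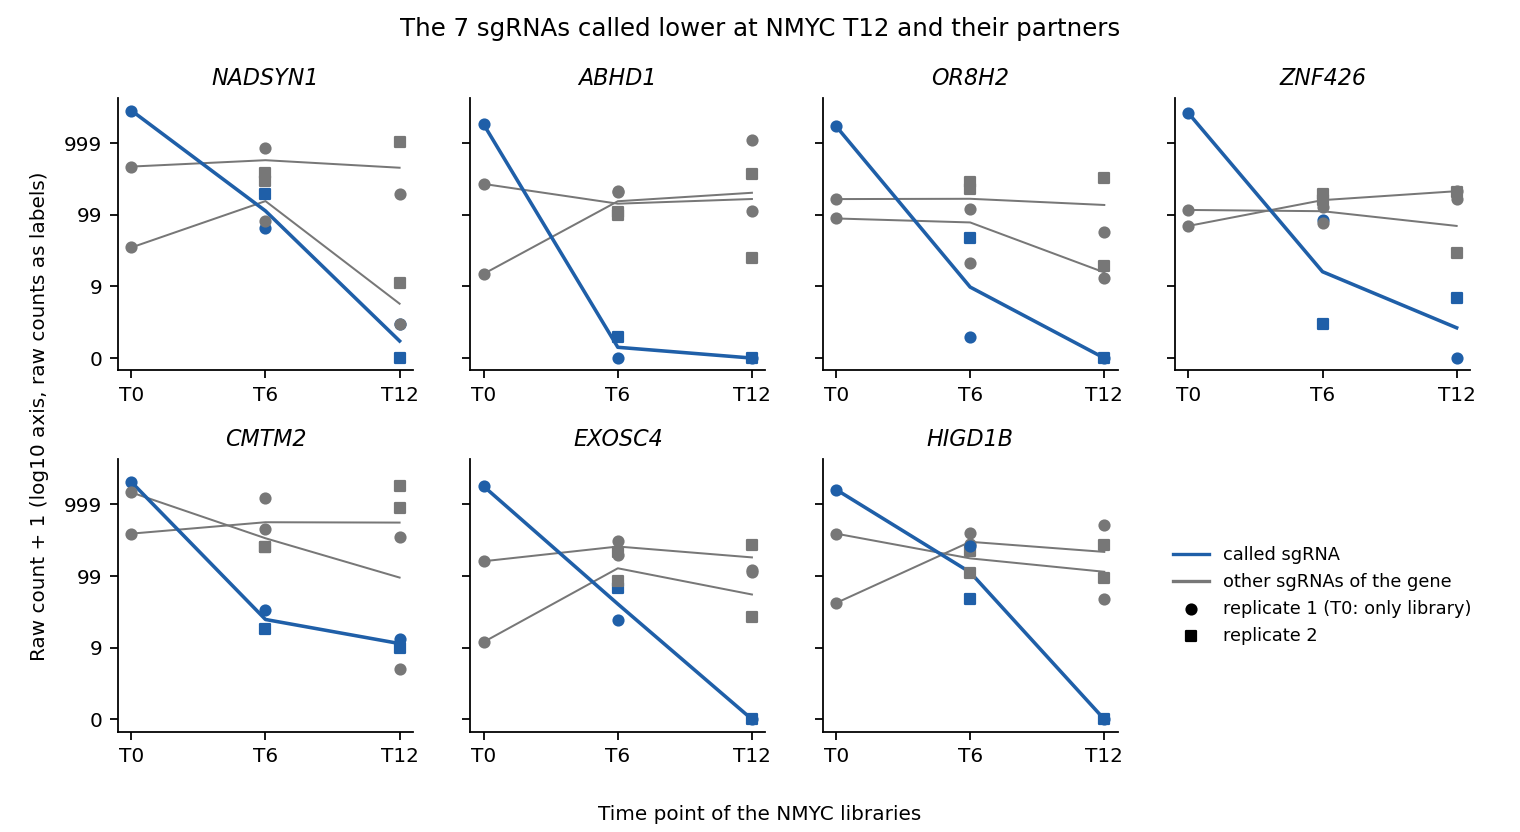
Raw counts (plus 1, log10 axis) of the 7 called sgRNAs (blue) and the other sgRNAs of their genes (grey) in the NMYC libraries at T0, T6 and T12; circles and squares are replicates 1 and 2 and lines join their means on the log scale. The blue lines end between 0 and 12 counts at T12, while partner sgRNAs of ABHD1 and CMTM2 reach 1106 and 1812.

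At the other end no sgRNA passed, and the 5 with the smallest p were against CCDC19 (now CFAP45), CD248, ARL16, CCL16 and MBD3L2. CFAP45 is a protein of cilia and CD248 a surface protein of stromal cells. The CCDC19 sgRNA had 543 and 2732 counts at T12 against 13 at T0 (edgeR adjusted p = 0.25). The CD248 sgRNA had 505 and 980 counts at T12 against 10 at T0 (edgeR adjusted p = 0.296). Both cultures were far above T0 for these. The CCL16 sgRNA, against a chemokine, showed the disagreement of the cultures: it had 26 and 3919 counts at T12 against 19 at T0 (edgeR adjusted p = 0.335). All 5 had 19 counts or fewer at T0.

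Genes were then scored by robust rank aggregation, which asks whether 1 or more sgRNAs of a gene lie nearer 1 end of the ranking than random ranks would. A single extreme sgRNA can be enough for a small p, so the score does not require that the sgRNAs of a gene agree. It called 0 of 18197 genes depleted (0%) and 0 enriched (0%). At an unadjusted p under 0.05 there were 914 depleted (5.02%) and 923 enriched genes (5.07%). The same score on DESeq2 p-values also called 0 and 0, and edgeR on summed counts called 2 depleted genes, DNMBP and SPATA3, named after their values were seen.

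GRHL1, a transcription factor of the grainyhead family in epithelia, had the smallest depleted p (rank aggregation adjusted p = 0.0927). Its level was 61.0 and 97.9 CPM at T12, against 312 CPM at T0 (log2 value -1.99). Of its 3 sgRNAs 2 had between 0 and 2 counts at T12 and the third was above T0 in both cultures, at 931 and 1356 counts against 389. GRHL1 passed in fits of the NMYC libraries alone (adjusted p = 0.0131), of NMYC T0 and T12 alone (0.0149) and without parental T12 replicate 2 (0.0423), all by rank aggregation on edgeR p-values. The adjusted p was 0.732 without NMYC T12 replicate 1, 0.556 without replicate 2 and 0.201 on DESeq2 p-values, and it lay between 0.0131 and 0.732 over all alternatives. GRHL2, its paralog, had 2 kept sgRNAs and levels of 64.6 and 41.2 CPM at T12 against 51.5 CPM at T0 (log2 value 0.01).

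The next lowest genes by rank aggregation among those with 3 kept sgRNAs, with adjusted p between 0.55 and 0.593, were NADSYN1, TEDDM1, BIRC6, CTAGE4, KIAA0907 (now KHDC4), TMEM139, ABHD1, CRY2 and TUT1. NADSYN1 and ABHD1 each had only 1 of 3 sgRNAs 4-fold lower in both T12 libraries. TUT1, a uridylyl transferase of U6 RNA, had 38.0 and 50.7 CPM at T12 against 283 CPM at T0 (log2 value -2.68). KHDC4, an RNA-binding protein linked to splicing, had 78.9 and 63.7 CPM at T12 against 266 CPM at T0 (-1.91). In both, 1 of the 3 sgRNAs was not lower in counts at T12, with 418 and 688 against 382 for TUT1 and 1027 and 854 against 213 for KHDC4.

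The highest genes with 3 kept sgRNAs were SLCO5A1, PLA2G2D, CCDC19, RAB6C, XYLT1, ARL16, BAZ2B, PRM3, ADSL and CCL16, with rank aggregation adjusted p between 0.76 and 0.885. SLCO5A1, of the organic anion transporter family, had 170 and 192 CPM at T12 against 35.2 CPM at T0 (log2 value 2.30), and all 3 of its sgRNAs were above T0 in both cultures. ADSL, an enzyme of purine synthesis, had 41.4 and 125 CPM at T12 against 3.73 CPM at T0 (4.12). ARL16 was among them through 1 sgRNA, at 409 and 1326 counts at T12 against 6 at T0, while its gene level was 33.9 and 184 CPM at T12 against 179 CPM at T0. CCL16, also among them, had 0 of 3 sgRNAs 4-fold higher in both T12 libraries. CD248, with 2 kept sgRNAs, ranked among them with 49.7 and 71.0 CPM at T12 against 5.43 CPM at T0 (log2 value 3.23, rank aggregation adjusted p = 0.76).

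A stricter description asked which genes had all 3 sgRNAs at least 4-fold lower, or all 3 at least 4-fold higher, in both T12 libraries. There were 23 genes all lower (0.151% of 15248) and 4 all higher (0.0262%). Among single kept sgRNAs, 10.9% were 4-fold lower and 5.53% 4-fold higher in both T12 libraries. With such shares some genes have all 3 sgRNAs on 1 side even if their sgRNAs move independently. Whether the 23 and 4 genes exceed that number was not tested. Of 254 core genes with 3 sgRNAs 1 was all lower, RPS19, and of 422 genes of the unused families 1 was, OR13A1. Among all genes 496 had 2 of 3 sgRNAs 4-fold lower and 507 had at least 1 sgRNA 4-fold lower and another 4-fold higher. The sgRNAs of the 23 genes had a median of 646 counts at T0, between 54 and 3179, against a median of 125 over all kept sgRNAs. Those of the 4 genes had a median of 23.5 counts, between 2 and 54.

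Among the 23 were genes of protein synthesis, metabolism, cell death, transport and DNA upkeep, and none passed the gene test (rank aggregation adjusted p between 0.55 and 0.939). RPS19, a protein of the small ribosomal subunit, had 7.13 and 7.14 CPM at T12 against 69.9 CPM at T0 (log2 value -3.15). Its 3 sgRNAs had 4 and 0, 91 and 79, and 14 and 20 counts at T12, against 170, 541 and 190 at T0. WDR55, a factor of ribosomal RNA processing, had 21.2 and 9.45 CPM at T12 against 110.0 CPM at T0 (-2.79). The cultures were close to each other for RPS19 and over 2-fold apart for WDR55.

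BIRC6, a giant inhibitor of apoptosis that marks caspases and other proteins with ubiquitin, had 32.9 and 22.9 CPM at T12 against 264 CPM at T0 (log2 value -3.22). Its sgRNAs had 501 and 311, 0 and 1, and 2 and 5 counts at T12, against 3179, 116 and 100 at T0. PMAIP1, which encodes the pro-apoptotic protein NOXA, had 11.6 and 2.31 CPM at T12 against 164 CPM at T0 (-4.40). Genes with opposite roles in cell death thus both had all 3 sgRNAs lower. The list of inhibitors of apoptosis, BCL2 family members and caspases had a median log2 value of -0.01 over 35 genes, and at its upper end BCL2L2, a survival factor, had 90.6 and 98.1 CPM at T12 against 10.9 CPM at T0 (2.98). Of the 3 BCL2L2 sgRNAs 2 were 4-fold higher in both T12 libraries, and the third had a log2 change of -2.01 in its lower T12 library.

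In metabolism and transport, CRY2, a repressor of the circadian clock, had 16.4 and 11.1 CPM at T12 against 239.9 CPM at T0 (log2 value -4.06). ASL, which makes arginine in the urea cycle, had 28.3 and 14.4 CPM at T12 against 265 CPM at T0 (-3.60). STEAP4, a metalloreductase of the cell membrane, had 4.32 and 8.73 CPM at T12 against 154 CPM at T0 (-4.39), and ABCB1, the drug efflux pump P-glycoprotein, 15.3 and 31.9 CPM against 172 CPM (-2.84). In each of these 4 genes both T12 libraries lay more than 4-fold below the T0 level, as the choice of the genes fixes.

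The remaining genes of the 23 included VRK1, a kinase of chromatin and the nuclear envelope, with 6.61 and 4.11 CPM at T12 against 58.8 CPM at T0 (log2 value -3.26). NABP2, a single-stranded DNA binding protein of DNA repair, had 7.65 and 8.80 CPM at T12 against 101 CPM at T0 (-3.49). TMEM199, an assembly factor of the proton pump of acidic organelles, had 4.25 and 2.31 CPM at T12 against 48.3 CPM at T0 (-3.55). TEDDM1, a membrane protein of the epididymis, had the lowest value, with 4.19 and 2.52 CPM at T12 against 120.1 CPM at T0 (-4.83). Genes with no expected use in prostate cells stood as low: OR13A1 had 10.9 and 11.8 CPM at T12 against 257 CPM at T0 (-4.41), and CABP5, a calcium-binding protein of the retina, 6.28 and 3.75 CPM against 144 CPM (-4.62). Others were SIRPA, SS18L2, STMND1, DCLK3, MDGA1, TBC1D25, NUDT18 and CTAGE4, the last from a family of near-identical copies, so that its sgRNAs are uncertain in their target.

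The 4 genes all higher were BAZ2B, a reader of acetylated histones, BAIAP2L2, which shapes membranes, RAB6C, a near-identical copy of another Rab gene, and PRM3, a protamine of sperm. BAZ2B had 91.0 and 109 CPM at T12 against 6.21 CPM at T0 (log2 value 3.78), with counts of 357 and 500, 828 and 601, and 207 and 408 at T12 against 7, 54 and 19 at T0. BAIAP2L2 had 121 and 188 CPM at T12 against 9.16 CPM at T0 (3.91). Rank aggregation gave them adjusted p between 0.885 and 0.959. Without NMYC T12 replicate 1 the counts of genes were 207 all lower and 90 all higher, without replicate 2 they were 125 and 55, and with 4 CPM added in place of 1 they were 4 and 0.

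**Figure D3:**
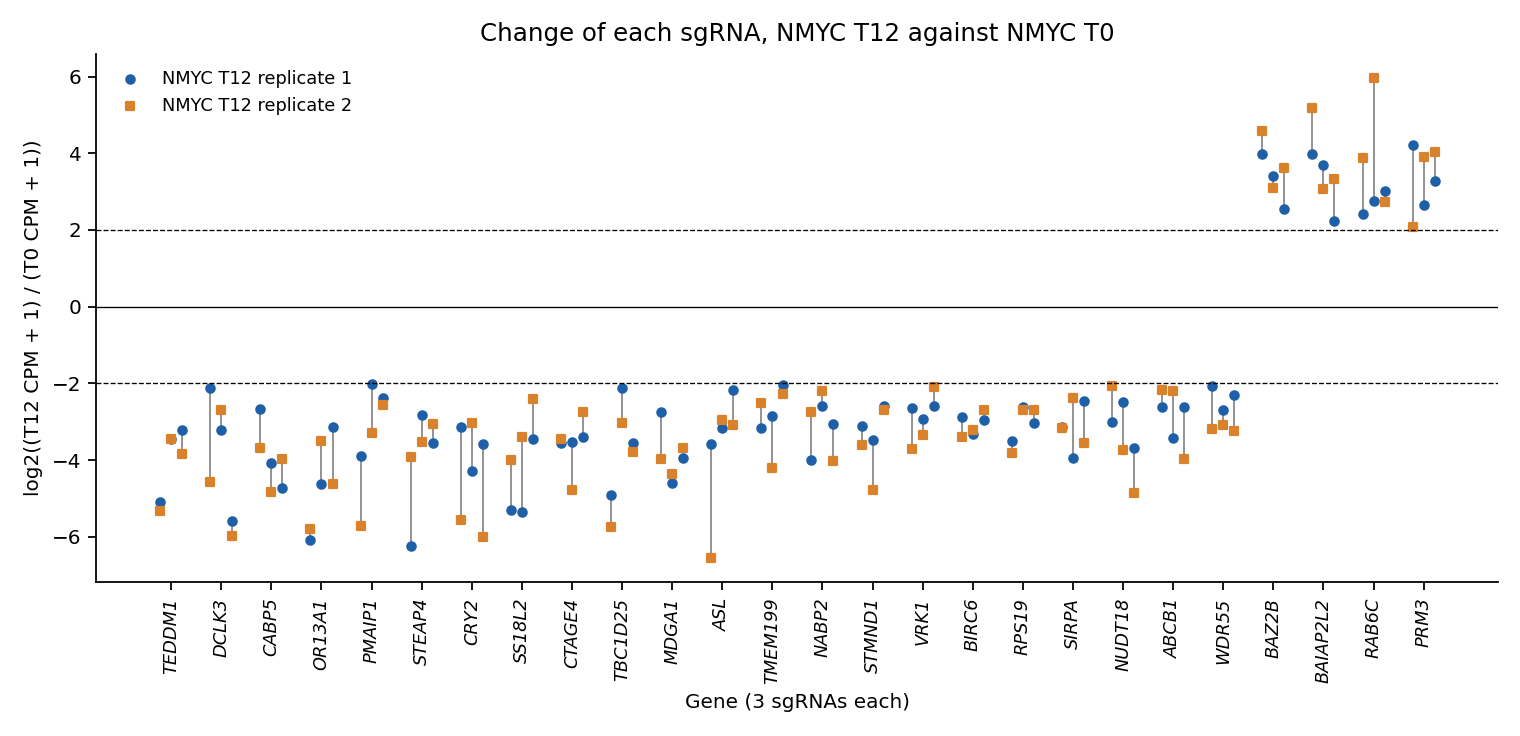
log2 change, NMYC T12 against NMYC T0 with 1 CPM added, of each of the 3 sgRNAs of 22 of the 23 genes all lower (left) and the 4 all higher (right); circles and squares are T12 replicates 1 and 2, a line joins them, and dashed lines mark 4-fold. All points lie beyond the dashed lines, as the choice of the genes fixes, and the replicates of 1 sgRNA are often far apart, as for the first sgRNA of STEAP4.

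Genes of the MYC network and of prostate biology were read one by one. MYCN itself had 2.09 and 130.4 CPM at T12 against 3.18 CPM at T0, and the cultures disagreed. Its sgRNAs had 1 and 10, 29 and 1097, and 2 and 701 counts at T12, against 20, 1 and 20 at T0: 2 of the 3 were high in replicate 2 alone. The log2 value was 3.98 from both libraries and -0.18 without replicate 2 (rank aggregation adjusted p = 0.959 for enrichment).

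MYC had 48.0 and 1.95 CPM at T12 against 27.9 CPM at T0 (log2 value -0.18), again with cultures on either side of T0. MAX, the partner that both MYC proteins need to bind DNA, had 41.7 and 11.2 CPM at T12 against 87.2 CPM at T0 (-1.71). Of its sgRNAs 2 were below T0 in both cultures, and the third, with 1 count at T0, had 13 and 19 at T12. EP400, a chromatin remodeller that works with MYC and the lowest of the network among genes with 3 kept sgRNAs, had 11.1 and 3.46 CPM at T12 against 52.6 CPM at T0 (-2.72). AURKA, the kinase that shields NMYC from degradation, had 64.2 and 23.6 CPM at T12 against 70.2 CPM at T0 (-0.69), with 2 sgRNAs above T0 in replicate 1 and the third below it in both cultures.

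RB1, the brake on entry into the cell cycle, had 8.76 and 80.2 CPM at T12 against 19.0 CPM at T0 (log2 value 1.16), with the cultures on either side of T0. Its other sgRNA did not pass the filter, with 0 and 0 counts at T12, 90 at T0 and 0 in all 5 parental libraries.

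NEUROG2, the neural transcription factor that the study's title names, had 46.3 and 99.5 CPM at T12 against 61.4 CPM at T0 (log2 value 0.22). Its sgRNAs had 512 and 112, 0 and 62, and 196 and 1206 counts at T12 against 554, 134 and 103 at T0: 2 were lower in both cultures and 1 higher in both. FOXA1, a factor that opens chromatin in luminal cells, had 42.8 and 132 CPM at T12 against 64.7 CPM at T0 (0.39), and HOXB13, a homeobox factor of the prostate, 40.4 and 8.65 CPM against 23.7 CPM (0.02). EZH2, the methyltransferase of Polycomb, had 90.9 and 163 CPM at T12 against 62.2 CPM at T0 (0.99), above T0 in both. None of these genes passed the gene test, with rank aggregation adjusted p of 0.959 or more, and in 7 of the 11 genes of the MYC network, prostate lineage and growth control plotted with them the T12 levels lay on either side of the T0 level.

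**Figure D4:**
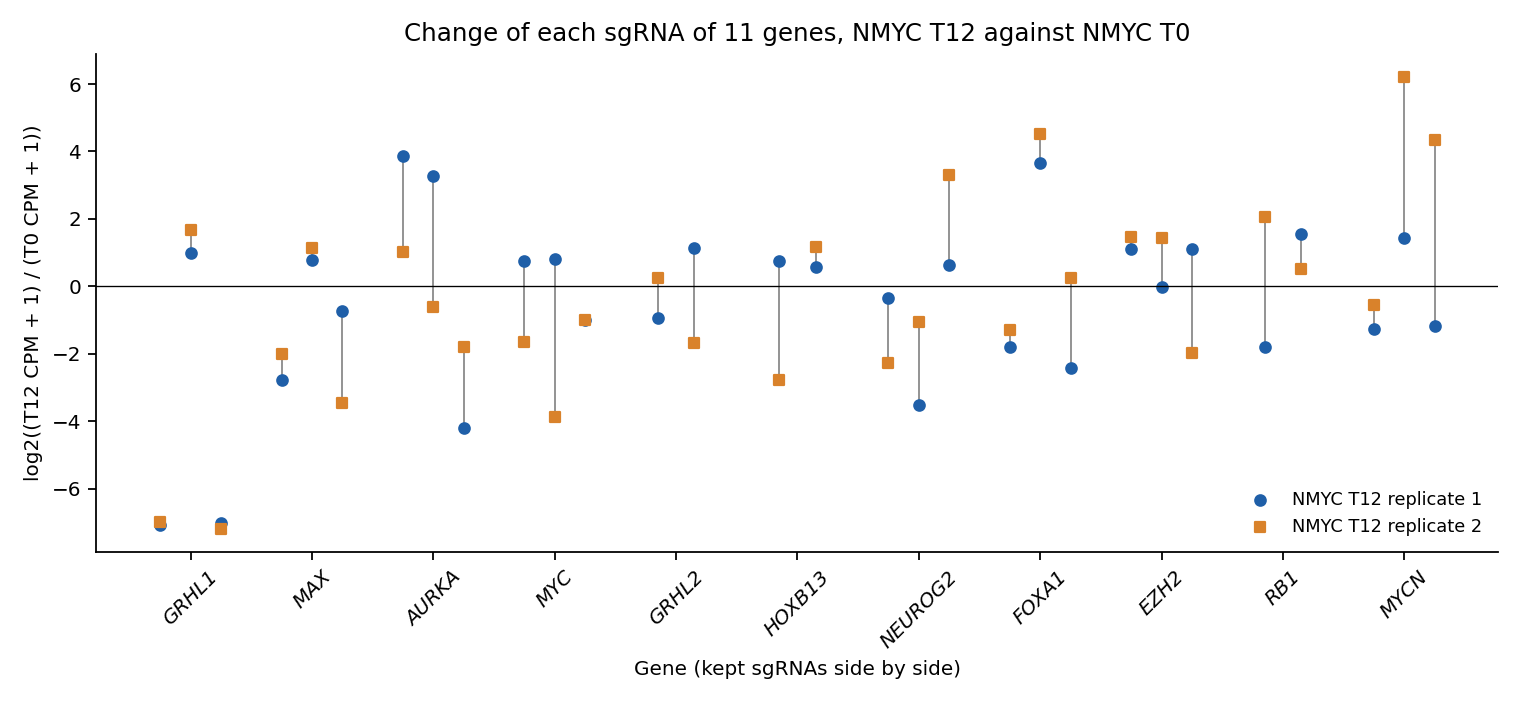
log2 change, NMYC T12 against NMYC T0 with 1 CPM added, of each kept sgRNA of 11 genes of the MYC network, prostate lineage and growth control; circles and squares are T12 replicates 1 and 2, joined by a line. sgRNAs of 1 gene spread over both signs for most genes, and the replicates of the second MYCN sgRNA lie at 1.43 and 6.22.

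Gene lists by function were described by their medians and counts, beside those of all genes, whose median is 0 by construction and whose middle 50% lay between -0.95 and 0.96. Lowest and highest members are named among genes with 3 kept sgRNAs. The 3 lowest medians were those of the synthetases, the large ribosomal subunit and the proteasome. The aminoacyl-tRNA synthetases, which charge tRNAs, had 15 of 23 genes below the median gene and a median log2 value of -0.86 (-1.61 from T12 replicate 1 alone and -1.16 from replicate 2). The large ribosomal subunit had 29 of 44 below and a median of -0.79 (-0.76 and -0.88), and the proteasome 24 of 33 below and -0.73 (-0.56 and -0.66). The small ribosomal subunit had 16 of 31 below and -0.52, translation initiation and elongation 21 of 33 and -0.39, and ribosome biogenesis 53 of 87 and -0.32. The RNA exosome, listed with the EXOSC4 result known, had 10 of 18 below and -0.72.

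At the level of sgRNAs, 17 of 85 against the small subunit were 4-fold lower in both T12 libraries (20%) and 2 were 4-fold higher (2.35%), against 10.9% and 5.52% over all genes. For the synthetases these were 13 of 66 (19.7%) and 3 (4.55%), for the large subunit 17 of 122 (13.9%) and 5 (4.10%), and for the proteasome 12 of 95 (12.6%) and 6 (6.32%). High shares of lower sgRNAs were not limited to these lists. The apoptosis list had 17 of 96 (17.7%), mitochondrial translation 38 of 237 (16.0%) and NAD synthesis 7 of 47 (14.9%). Below all genes stood the RNA exosome (9.80%), DNA replication (9.72%), candidate synthetic lethal partners of MYC or MYCN (9.35%) and prostate luminal factors (6.98%). T0 levels differed between the lists: the median gene of the synthetases stood at 35.3 CPM at T12 against 64.3 CPM at T0, of the proteasome at 42.0 against 64.0 CPM, of the large subunit at 30.1 against 46.3 CPM, of the small subunit at 34.3 against 32.5 CPM, and of all genes at 47.9 against 43.7 CPM. The part of the T0 level in these medians was not tested. At an unadjusted rank aggregation p under 0.05, 3 of 44 large subunit genes, 4 of 31 small subunit genes, 3 of 23 synthetases and 4 of 33 proteasome genes were depleted, against 5.02% of all genes, and 0 passed the adjusted test in any list.

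Single members spread far beyond the medians. RPL10 of the large subunit had 11.8 and 5.05 CPM at T12 against 99.7 CPM at T0 (log2 value -3.45), while RPL28 of the same subunit had 2.49 and 86.2 CPM at T12 against 7.45 CPM at T0 (2.40). Of the RPL10 level at T0, 94.0 CPM came from 1 sgRNA. Another RPL10 sgRNA was higher, with 89 and 24 counts at T12 against 4 at T0. PSMD11, a lid subunit of the proteasome, had 34.4 and 3.10 CPM at T12 against 178 CPM at T0 (-3.21), and PSMA4 of its core 115 and 46.0 CPM against 26.4 CPM (1.55). Of the PSMD11 level at T0, 170 CPM came from 1 sgRNA. Another PSMD11 sgRNA was higher, with 512 and 33 counts at T12 against 3 at T0. HARS (now HARS1), the histidine synthetase, had 1.57 and 13.2 CPM at T12 against 68.8 CPM at T0 (-3.09). EXOSC10, a nuclease of the RNA exosome, had 4.32 and 6.92 CPM at T12 against 188 CPM at T0 (-4.87), with all 3 sgRNAs below T0 in both cultures: 28 and 13, 5 and 3, and 33 and 80 counts against 557, 48 and 1821.

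The other core lists had medians between -0.07 and 0.24. The spliceosome had 40 of 77 genes below the median gene and a median of -0.07 (0.16 from T12 replicate 1 and -0.49 from replicate 2), RNA polymerase II and Mediator 38 of 76 and -0.04, and DNA replication 21 of 51 and 0.24. Mitosis, not counted as core, had 38 of 77 below and a median of 0.01. MED7, a Mediator subunit, was nevertheless low, with 5.62 and 4.83 CPM at T12 against 141 CPM at T0 (log2 value -4.54, rank aggregation adjusted p = 0.593). CDCA5, which holds sister chromatids together, had 12.5 and 2.52 CPM at T12 against 149.8 CPM at T0 (-4.18). PCNA, the sliding clamp of DNA replication, had 23.0 and 7.14 CPM at T12 against 242 CPM at T0 (-3.95), which rested on 1 sgRNA with 222 and 81 counts at T12 against 3103 at T0.

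Mitochondrial translation had 46 of 82 genes below and a median of -0.21, with 10 of 82 depleted and 5 enriched at an unadjusted rank aggregation p under 0.05, against 5.02% and 5.07% of all genes, and the respiratory chain 44 of 74 and -0.24. TUFM, the mitochondrial elongation factor, had a log2 value of -3.88, and its sgRNAs had 173 and 114, 5 and 1, and 80 and 9 counts at T12 against 1240, 47 and 1290 at T0. NAD synthesis, listed with the NADSYN1 result known, had 9 of 17 below and a median of -0.52, from IDO1 at -2.62 to QPRT at 1.28.

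Lists tied to NMYC had medians on either side of all genes. The MYC and MAX network had 12 of 22 genes below and a median of -0.17, genes of NMYC protein stability 12 of 18 and -0.48 (-0.19 from T12 replicate 1 alone and -0.37 from replicate 2), and candidate synthetic lethal partners of MYC or MYCN 34 of 75 and 0.41 (0.12 and 0.30). The last median was -0.31 when taken over sgRNA fold changes from edgeR. Of these 75, 6 were depleted and 3 enriched at an unadjusted rank aggregation p under 0.05, against 5.02% and 5.07% of all genes. The lowest of them, ACLY, which makes acetyl-CoA for lipids, had 61.5 and 7.57 CPM at T12 against 329 CPM at T0 (log2 value -3.24). BRD2, a bromodomain protein and the highest, had 13.7 and 80.0 CPM at T12 against 2.87 CPM at T0 (3.60).

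Neural and neuroendocrine factors had 23 of 40 genes below and a median of -0.27, prostate luminal factors 13 of 31 and 0.02, and Polycomb and DNA methylation 20 of 42 and 0.14. REST, the repressor of neural genes, had 46.3 and 75.1 CPM at T12 against 10.6 CPM at T0 (log2 value 2.38). ONECUT2, a homeobox factor of the neuroendocrine state, had 7.13 and 52.8 CPM at T12 against 195 CPM at T0 (-2.69). Of that T0 level 160 CPM came from 1 sgRNA, and another ONECUT2 sgRNA had 59 and 661 counts at T12 against 253 at T0. Growth-restraining genes had the highest median of the 22 lists from both libraries, 0.41, with 22 of 52 below. It was 0.03 from T12 replicate 1 alone, where RNA polymerase II and Mediator stood higher at 0.30, and 0.54 from replicate 2. PMAIP1 was the lowest member at -4.40.

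**Figure D5:**
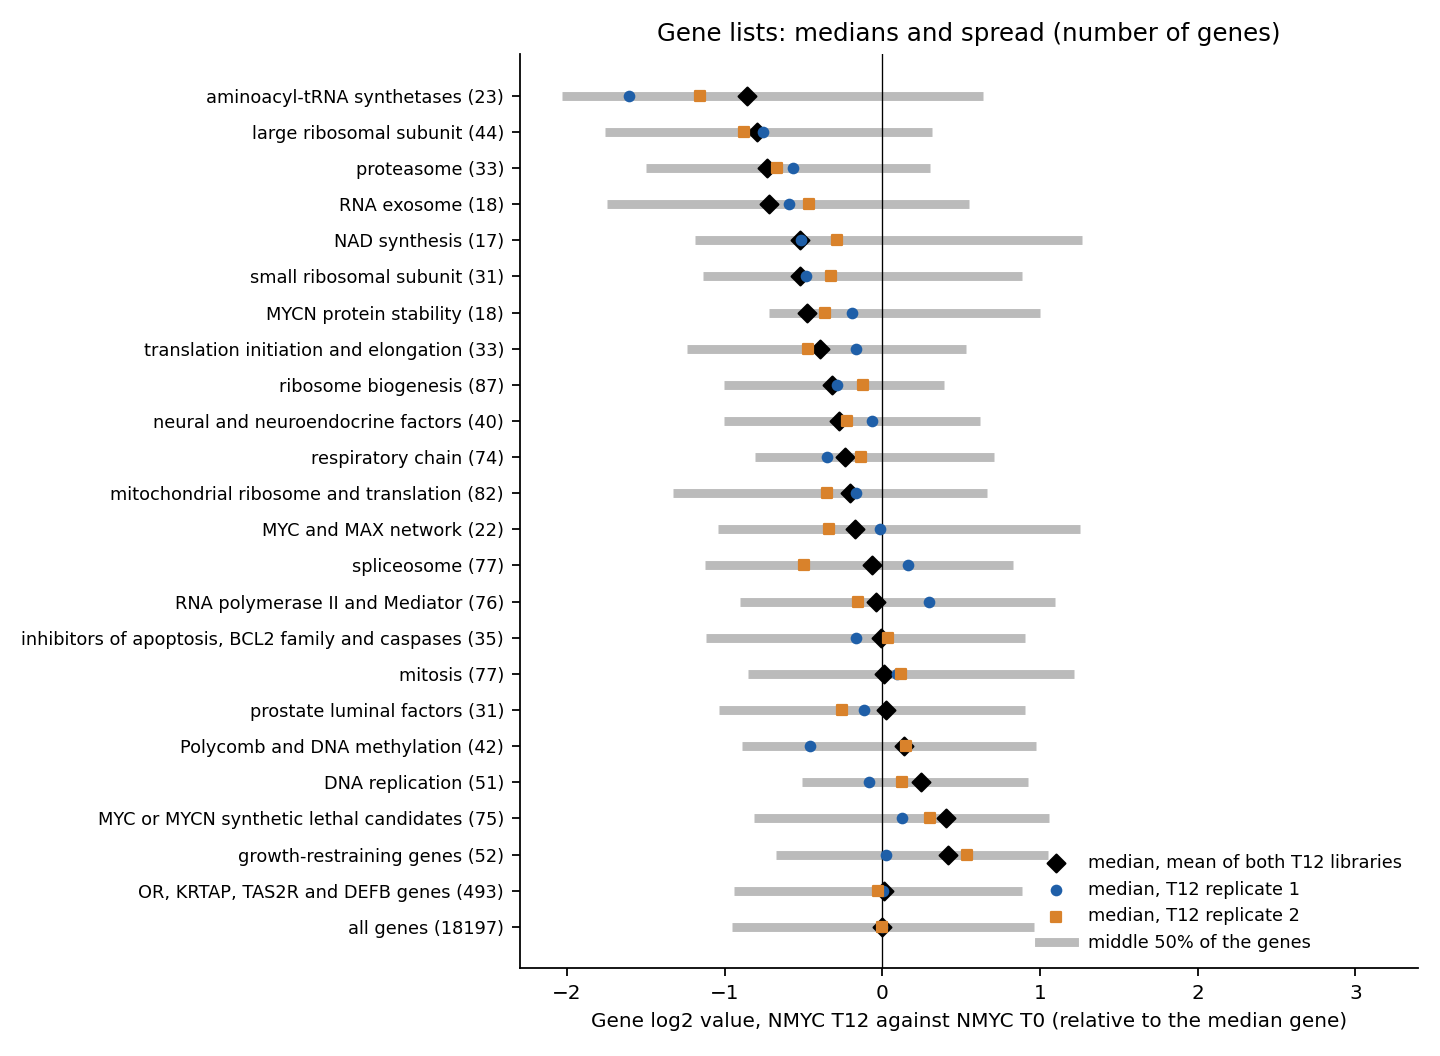
Gene log2 values, NMYC T12 against NMYC T0 relative to the median gene, by list: diamonds are list medians from the mean of both T12 libraries, circles and squares those from each library, and grey bars span the middle 50% of genes (number of genes in brackets). Aminoacyl-tRNA synthetases (-0.86), the large ribosomal subunit (-0.79) and the proteasome (-0.73) lie lowest, and every grey bar crosses 0.

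Whether NMYC cells differed from parental cells in this change was tested as the difference of both contrasts. edgeR called 0 of 53040 sgRNAs (0%; 3272 lower and 2005 higher in NMYC cells at an unadjusted p under 0.05) and rank aggregation 0 of 18197 genes (0%; 869 and 882), while DESeq2 called 2047 sgRNAs lower and 1412 higher. The 7 sgRNAs that fell in NMYC cells had adjusted p between 0.185 and 0.392 for the difference. For the ZNF426 sgRNA the change from T0 to T12 was 14.8 log2 units lower in NMYC than in parental cells (edgeR adjusted p = 0.185). This sgRNA had 595 and 870 counts at parental T12 against 20 at parental T0, and 0 and 6 at NMYC T12 against 2630 at NMYC T0. EXOSC4 had 308 and 67 counts at parental T12 against 306 at parental T0 (adjusted p of the difference 0.36).

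In parental cells 28 genes had all 3 sgRNAs 4-fold lower (0.184% of 15248) and 17 all higher (0.111%), and 0 of either set were in the corresponding NMYC set. With sets this small among 15248 genes, 0 shared genes cannot tell whether the sets are particular to either line. The 23 NMYC genes had log2 values between -3.52 and 1.5 in parental cells, with a median of 0.21 and 10 below and 13 above the parental median gene. VRK1 was as low in parental cells, at -3.52, and ABCB1 stood at -2.93, while TEDDM1 stood at 0.46. The synthetase list had a median of -0.86 in NMYC and 0.56 in parental cells, the large subunit -0.79 and -0.34, the proteasome -0.73 and -0.23, and the RNA exosome -0.72 and 0.51. These list differences were not tested.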

How the data were processed

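Amplicons of the sgRNA cassette from genomic DNA were sequenced in 10 libraries of 6 groups. The authors deposited 1 table of raw, unnormalized counts, a row for each sgRNA; MAGeCK is named without a version in the submitters' processing notes, and trimming and matching were not given in the sources used here. Its 55849 sgRNAs carry symbols and IDs, with no sequence, coordinate or build, so none is printed. All 10 columns matched a label and 0 were left out. sgRNAs with a mean count of at least 20 were fitted with edgeR 4.0.16 (R 4.3.3, TMM, quasi-likelihood, 6 group means, 4 residual degrees of freedom, common dispersion 1.11) over all libraries, since T0 is single, and adjusted by Benjamini-Hochberg at 0.05. Gene p-values came from rank aggregation of signed sgRNA p-values (alpha at a one-sided p of 0.25, exact null, at least 2 sgRNAs). The scripts were tested on simulated data.

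The labels say that cells were collected from each replicate at each passage, so a number marks 1 culture; deviations of same-numbered T6 and T12 libraries correlated at -0.0088 (NMYC) and 0.0647 (parental), and with the block 0 sgRNAs were called, against 7. Alternatives varied normalization, filters, CPM added, fold threshold, tool and libraries. Named genes were every called sgRNA and, where fewer than 5 passed in a direction, the 5 smallest p; among genes with 3 kept sgRNAs, per direction the 10 smallest gene p and the 10 genes whose least changed sgRNA changed most; the ends of each of 22 lists; and a set of 14, some of which are not reported here. Members of the 23 and 4 genes outside this rule were named after their values were seen. Members and lists were chosen with earlier results of these data known.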

Additional observations from a re-analysis of the deposited data

How the results depend on the processing

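The count of 7 sgRNAs lower at T12 was 0 with median-of-ratios or non-targeting size factors, with a mean count of at least 50, with at least 30 counts at NMYC T0 and with the replicate block. It was 20 in the T0 and T12 libraries alone, 285 (and 4 higher) in the 5 NMYC libraries and 872 (and 658 higher) by DESeq2, and leaving out single libraries gave 0 to 79. The replicate block changed no other call. Depleted genes numbered 2 with edgeR on summed counts, 1 in the 5 NMYC libraries, 1 in T0 and T12 alone and 0 to 1 when 1 library was left out. In the difference from parental cells DESeq2 gave 2047 sgRNAs lower and 1412 higher, and leaving out 1 library gave 0 to 5 in either direction. The 23 genes all lower became 38 with 0.25 CPM added, 4 with 4 CPM, 11 with at least 30 counts at T0, 143 at 2-fold and 125 to 207 without 1 T12 library. The 4 genes all higher became 0 with 4 CPM or at least 30 T0 counts, 40 at 2-fold and 55 to 90 without 1 T12 library. For genes all lower or all higher, a 2-fold threshold or 1 T12 library makes the rule looser and can only add genes. More CPM added shrinks every change and can only remove genes, and less can only add them. With at least 30 counts at T0 the 4 genes all higher could not be counted, since each had an sgRNA with 2 to 24 counts at T0. The sgRNAs of the 23 genes all lower had 54 counts or more at T0, so this filter left all of them in. The cause of the remaining shifts was not tested. Non-targeting size factors moved the median gene by 0.13 on the log2 scale, median-of-ratios factors by 0.12 and the main ones by 0.03. Of 22 list medians 12 kept their sign under all 9 alternatives, 11 of them below 0, with ranges of -1.61 to -0.67 for the synthetases, -0.90 to -0.71 for the large ribosomal subunit, -0.75 to -0.56 for the proteasome and -0.73 to -0.05 for the RNA exosome. With 1 CPM added, a 4-fold fall could not be reached by sgRNAs with few counts at T0.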
